A study of Mus musculus with 6 samples.

Results

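The genes described here are the 3 transforming growth factor beta (TGF-beta) ligand genes of the mouse, Tgfb1, Tgfb2 and Tgfb3, and 5 genes of their receptors, Tgfbr1, Tgfbr2, Tgfbr3, Eng and Acvrl1. They were chosen by symbol in GENCODE M21, and are 8 of the 55536 genes in the deposited count matrix. All 8 passed the filter on low counts that left 15712 genes for testing. RNA was sequenced from limb bone perichondrium, the fibrous sheath of cartilage, microdissected from mice at postnatal day 4. The knockout group has 3 libraries, labelled Fbn1Scx-/- and in which Fbn1 was deleted by a Cre recombinase under control of scleraxis (Scx), a transcription factor gene of tendon and ligament progenitors. Their short names are mut-596, mut-597 and mut-795. The control group has 3 libraries from mice labelled WT, named WT-596, WT-597 and WT-795, and the labels used here do not say whether these mice carried floxed alleles or Cre. This Cre acts in cells that have expressed Scx, so a library can also hold RNA of cells whose Fbn1 is intact. Values of single libraries are given below in the order of these names, mut-596 and WT-596 first. The comparison asked how these transcripts differ once fibrillin-1, the microfibril protein encoded by Fbn1, is lost, and the title of the series names TGF-beta signalling in this tissue. No label ties a library to an animal of its own, so the p-values speak only of the spread among these libraries, which may in part be technical.

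TGF-beta ligands are secreted as dimers bound to their own propeptide, which keeps them latent. Most are stored in the matrix through latent TGF-beta binding proteins on fibrillin microfibrils, and integrins or proteases release them. The free ligand binds the type II receptor TGFBR2, which phosphorylates the type I receptor TGFBR1 (ALK5), or ACVRL1 (ALK1) in endothelium, and these phosphorylate SMAD proteins that enter the nucleus. Betaglycan, encoded by Tgfbr3, presents ligand to TGFBR2 and is needed most for TGF-beta 2, and endoglin, encoded by Eng, is a related co-receptor of endothelial and some mesenchymal cells. In the growth plate, TGF-beta signals in the perichondrium are known to restrain the maturation of chondrocytes.

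Total counts per library lay between 7209217 and 10316017, and the 8 genes took between 2367 and 3783 counts of each. Levels are in CPM, counts relative to a library size scaled by the trimmed mean of M-values (TMM) in edgeR, and 1 CPM stood for 6.67 to 10.6 counts. Fbn1 itself averaged 7.96 ± 1.81 CPM in the knockout libraries and 89.1 ± 28.1 CPM in the wild-type ones (SD, n = 3), and was the 1 gene past the threshold (edgeR adjusted p = 1.03e-04). One wild-type library stood apart: over all tested genes WT-795 differed by a root mean square of 0.362 log2 units from the mean of the knockout libraries and by 0.656 from the mean of the other wild-type libraries. The mut-795 library lay about as near to either group, at 0.490 and 0.483. Mitochondrial and ribosomal-like genes took 28.3%, 28.3% and 25% of counts in the knockout libraries. In the wild-type libraries they took 21.5%, 21.5% and 29.3%, so WT-795 was nearer to the knockout libraries in this share as well. The part of this difference between libraries in the levels below was not tested. Xist was abundant in mut-596 (6221 counts) and mut-597 (4024 counts) and had at most 4 counts elsewhere, so sex was not balanced between the groups. Markers of the labelled tissue were abundant in every library: the 23 perichondrium and periosteum markers summed to between 41580 and 43250 CPM, with Col1a2, Col3a1 and Postn among the highest.

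The promoter sequences of both sides of the results are shown first, 2 genes with lower means in knockout (Tgfb1 and Eng) and 2 without (Tgfb2 and Tgfbr1). They come from RefSeq on GRCm38.p6, read 5′ to 3′ on the gene's strand from 250 bases before to 50 bases after the start. Of the 8 genes, 5 were matched, and Tgfb3, Tgfbr3 and Acvrl1 were not. Capitals mark 3 short motifs, each searched on both strands. The GC box was searched as GGGCGG. The TATA box was searched as TATAAA, and the CCAAT box by the letters of its name. The windows lie at chr7:25686752-25687051 on the plus strand for Tgfb1, chr2:32646345-32646644 on the plus strand for Eng, chr1:186705940-186706239 on the minus strand for Tgfb2 and chr4:47352972-47353271 on the plus strand for Tgfbr1.
Tgfb1: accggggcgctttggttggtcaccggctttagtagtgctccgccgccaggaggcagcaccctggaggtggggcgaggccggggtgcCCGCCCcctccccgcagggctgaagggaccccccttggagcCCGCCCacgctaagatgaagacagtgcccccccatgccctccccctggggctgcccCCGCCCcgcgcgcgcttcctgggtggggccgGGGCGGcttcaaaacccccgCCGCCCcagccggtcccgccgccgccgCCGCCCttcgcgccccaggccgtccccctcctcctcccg
Eng: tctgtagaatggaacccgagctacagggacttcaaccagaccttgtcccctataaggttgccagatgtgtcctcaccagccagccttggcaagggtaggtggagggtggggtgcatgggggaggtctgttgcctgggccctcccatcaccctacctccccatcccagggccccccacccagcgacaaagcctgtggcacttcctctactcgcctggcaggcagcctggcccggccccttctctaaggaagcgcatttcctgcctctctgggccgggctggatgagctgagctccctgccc
Tgfb2: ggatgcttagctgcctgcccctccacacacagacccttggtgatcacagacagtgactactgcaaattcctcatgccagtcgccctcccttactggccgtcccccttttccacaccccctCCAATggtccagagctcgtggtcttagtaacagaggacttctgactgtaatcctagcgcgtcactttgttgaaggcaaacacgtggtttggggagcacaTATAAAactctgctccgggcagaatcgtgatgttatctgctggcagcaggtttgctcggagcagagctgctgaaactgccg
Tgfbr1: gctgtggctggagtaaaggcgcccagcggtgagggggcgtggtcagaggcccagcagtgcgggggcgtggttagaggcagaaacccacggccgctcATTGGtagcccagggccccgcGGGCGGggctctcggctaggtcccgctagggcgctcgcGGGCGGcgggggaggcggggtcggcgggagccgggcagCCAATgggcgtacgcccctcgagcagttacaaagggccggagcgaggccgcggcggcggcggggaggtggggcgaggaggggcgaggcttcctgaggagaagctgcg

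The Tgfb1 window had a GC content of 77.0%, above that of 97.6% of 32851 mouse promoter windows, and held 6 GC boxes, a motif found in 35.7% of those windows. The Tgfb2 window was at 54.3% GC, had no GC box, and carried a TATA box at position -31 from the start, a motif present in 13.6% of windows. It also held 1 CCAAT box, at position -130. The Tgfbr1 window (74.7% GC) held 2 GC boxes and 2 CCAAT boxes, and the Eng window (63.3% GC) held none of these motifs. A CCAAT box is found in 37.4% of windows, and a match is a description, not a binding site. Among the windows shown, the GC box was carried by Tgfb1, with a lower mean in knockout, and by Tgfbr1, with a higher one. The window of Tgfbr2, matched but not shown, held 0 GC boxes. So few windows cannot tell whether a motif goes with the direction. Neither the SMAD palindrome GTCTAGAC (0.213% of windows) nor the cAMP response element TGACGTCA (1.79%) was found in any of the 5 matched genes.

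Among the ligand genes, Tgfb1 and Tgfb3 had lower means in knockout, and Tgfb2 did not. Tgfb1 encodes the ligand made by most tissues and by blood cells and platelets. Its levels were 7.79, 11.5 and 7.82 CPM in the knockout libraries. In the wild-type libraries they were 26.6, 24.7 and 9.28 CPM. WT-795 was low and lay inside the knockout range, while the other wild-type libraries were above every knockout library. The counts behind these levels were 59 to 77 in knockout and 67, 262 and 280 in wild type. The log2 fold change, taken throughout as knockout over wild type, was -1.17 (SE 0.35), and its edgeR adjusted p was 0.459.

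Tgfb3, the ligand gene of tendon, palate and mesenchyme, had 20.3, 21.1 and 23.5 CPM in the knockout libraries. Its wild-type levels were 41.3, 39.3 and 24.8 CPM. All knockout libraries lay below all wild-type libraries, but WT-795 was only just above them. The log2 fold change was -0.70 (SE 0.24) and the edgeR adjusted p 0.459. By exact permutation of log2 CPM, two-sided, p was 0.1 for Tgfb3, the smallest value that 3 libraries against 3 allow, and 0.2 for Tgfb1.

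Tgfb2 was the most abundant ligand gene in every library. Knockout libraries had 114, 118 and 109.8 CPM of it, and wild-type libraries 81.9, 112 and 120.3 CPM. The knockout values lay within the wild-type range, and the log2 fold change was 0.13 (SE 0.22, edgeR adjusted p = 0.804). Its sign changed to -0.03 without WT-596, the lowest library.

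**Figure D1:**
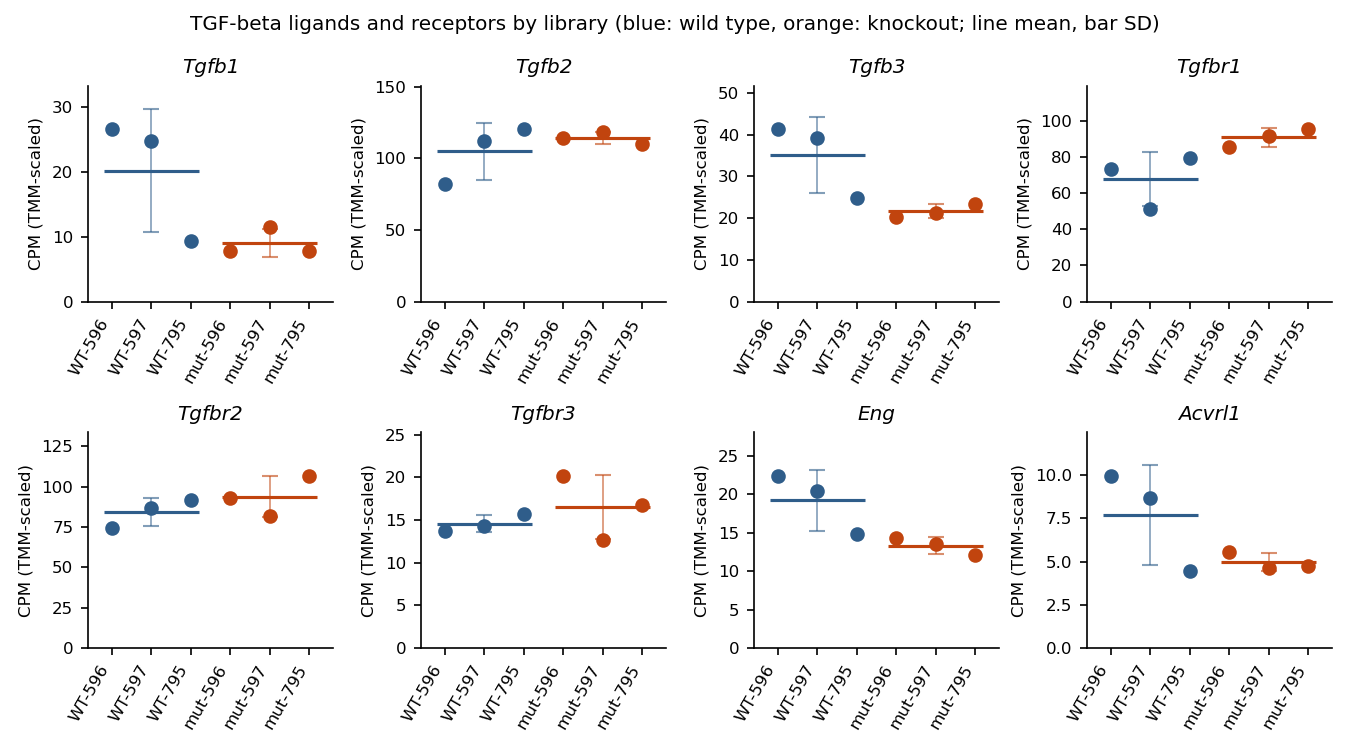
Level of each ligand and receptor gene in each library, in TMM-scaled CPM on a linear axis from 0, with wild type in blue and knockout in orange, the group mean as a line and the SD as a bar. For Tgfb1, Tgfb3, Eng and Acvrl1 the WT-795 point sits near the knockout points (9.28 CPM for Tgfb1), below WT-596 and WT-597.

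Of the signalling receptor genes, Tgfbr1 had a higher mean in knockout while the Tgfbr2 groups overlapped. Tgfbr1, the type I receptor kinase, had 85.3, 91.6 and 95.4 CPM in the knockout libraries. Wild-type levels were 73.5, 51.1 and 79.3 CPM, below every knockout library. The log2 fold change was 0.42 (SE 0.22), and the edgeR adjusted p was 0.483. Tgfbr2, the type II receptor that binds ligand, ranged from 81.6 to 106.9 CPM in knockout and from 74.7 to 91.6 CPM in wild type. Its log2 fold change was 0.16 (SE 0.21, edgeR adjusted p = 0.749).

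Acvrl1 and Eng, which work together in endothelium and are mutated in hereditary haemorrhagic telangiectasia, both had lower means in knockout. Eng had 14.3, 13.5 and 12.1 CPM in the knockout libraries and 22.4, 20.4 and 14.8 CPM in the wild-type ones. The groups did not overlap, but WT-795 was close to the highest knockout library. The log2 fold change was -0.54 (SE 0.24, edgeR adjusted p = 0.467). Acvrl1, the least abundant of the 8, had 5.55, 4.65 and 4.73 CPM in the knockout libraries and 9.97, 8.68 and 4.43 CPM in the wild-type ones. WT-795 was the lowest of all 6 libraries for Acvrl1, and the log2 fold change was -0.64 (SE 0.33, edgeR adjusted p = 0.478). Only 31 to 105 counts per library lay behind these Acvrl1 levels. Tgfbr3, the betaglycan gene, ranged from 12.6 to 20.2 CPM in knockout and from 13.8 to 15.7 CPM in wild type. The Tgfbr3 groups overlapped, at a log2 fold change of 0.18 (SE 0.24, edgeR adjusted p = 0.741).

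No ligand or receptor gene passed the edgeR threshold of 0.05 adjusted over all tested genes, where 0.00636% of genes passed in all. With no filter on low counts Tgfb1 passed (edgeR adjusted p = 0.00646), beside 0.742% of genes called lower in that fit. DESeq2 (0.438% of genes called), limma-voom and limma-voom with sample weights also called 0 of the 8 under their own filters, and DESeq2 gave no adjusted p for Tgfb1, Tgfbr3, Eng and Acvrl1, which fell under its filter on low means. An unadjusted edgeR p under 0.05 was found for 3 of the 8, Tgfb1, Tgfb3 and Eng, all with lower means in knockout. Of all tested genes 7.12% were lower and 3.37% higher by that rule. Groups did not overlap for 3 of the 8, Tgfb3 and Eng lower and Tgfbr1 higher, where 6.22% of tested genes were lower and 5.66% higher without overlap. The authors' deposited table of differential genes lists 3 of the 8, all lower, where it lists 9.2% of tested genes and 6.44% as lower. It gives log2 fold changes of -1.18 for Tgfb1, -0.71 for Tgfb3 and -0.55 for Eng. Of 1609 genes of the authors' deposited table that could be matched, 1608 had a DESeq2 p under 0.05 without adjustment.

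Leaving out WT-795 brought Tgfb1 and Tgfb3 past the threshold. WT-795 is the wild-type library nearest to the knockout mean, so leaving it out tends by construction to widen differences. Without it, Tgfb1 fell by 1.53 on the log2 scale (SE 0.25, edgeR adjusted p = 0.00685) and Tgfb3 by 0.91 (SE 0.21, edgeR adjusted p = 0.0201). That made 2 of 8 genes lower, beside 5.73% of tested genes lower and 3.35% higher in the same fit. Acvrl1 was at -0.92 (edgeR adjusted p = 0.0554), Eng at -0.71 (edgeR adjusted p = 0.0618) and Tgfbr1 at 0.52 (edgeR adjusted p = 0.139) without WT-795. Leaving out any other single library gave no call among the 8, with log2 fold changes of Tgfb1 between -1.39 and -0.94. With a covariate for the libraries that contained Xist, which leaves mut-795 as the only knockout library compared, Tgfb1 was at -1.38 (SE 0.55, edgeR adjusted p = 0.930).

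**Figure D2:**
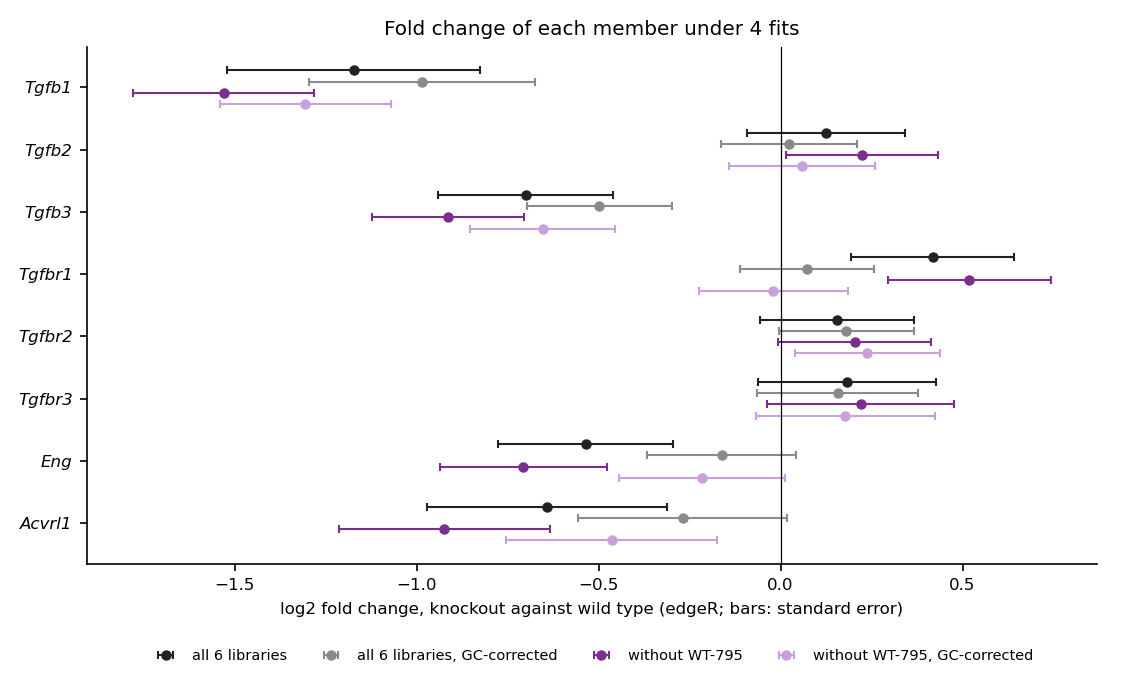
Log2 fold change of each gene, knockout against wild type, from 4 edgeR fits, with the standard error as a bar. Tgfb1 stays left of 0 in all 4 fits (-1.17 in the fit of all libraries), and the GC correction moves Eng, Acvrl1 and Tgfbr1 close to 0 or part of the way there.

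The 4 genes with lower means had the 4 most GC-rich transcripts of the 8, Tgfb1 at 52.5%, Tgfb3 at 53.0%, Acvrl1 at 56.6% and Eng at 57.4% GC. Transcripts of Tgfbr1, Tgfb2, Tgfbr3 and Tgfbr2 had 41.0%, 46.9%, 48.6% and 49.6% GC. A slope on GC content ran through all tested genes. The median log2 fold change was 0.29 for 3187 genes at 40 to 45% GC, the range of Tgfbr1, and 0.08 at 45 to 50%. It was -0.18 for 3948 genes at 50 to 55%, the range of Tgfb1 and Tgfb3, and -0.38 for 2528 genes at 55 to 60%, the range of Eng and Acvrl1. Tgfb1 and Tgfb3 lay further below 0 than the median of their range, while Eng and Acvrl1 lay nearer to theirs.

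A correction that subtracts each library's smooth trend on GC content left Tgfb1 at -0.99 (SE 0.31, edgeR unadjusted p = 0.00716) and Tgfb3 at -0.50 (SE 0.20, edgeR unadjusted p = 0.0259). Eng moved from -0.54 to -0.16 (SE 0.20), Acvrl1 from -0.64 to -0.27 (SE 0.29) and Tgfbr1 from 0.42 to 0.07 (SE 0.18). Tgfb3 kept groups that did not overlap after the correction, and those of Tgfbr1 and Eng overlapped. The adjusted edgeR p of Tgfb1 was 0.757 with the correction, and 0.0192 with the correction and without WT-795. In that last fit 0.796% of tested genes were called lower and 0.156% higher, and Tgfb1 was the 1 called of the 8, at -1.31 (SE 0.24), while Tgfb3 was at -0.65 (SE 0.20, edgeR adjusted p = 0.120). The correction takes out any difference that runs along GC content, whatever its source.

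**Figure D3:**
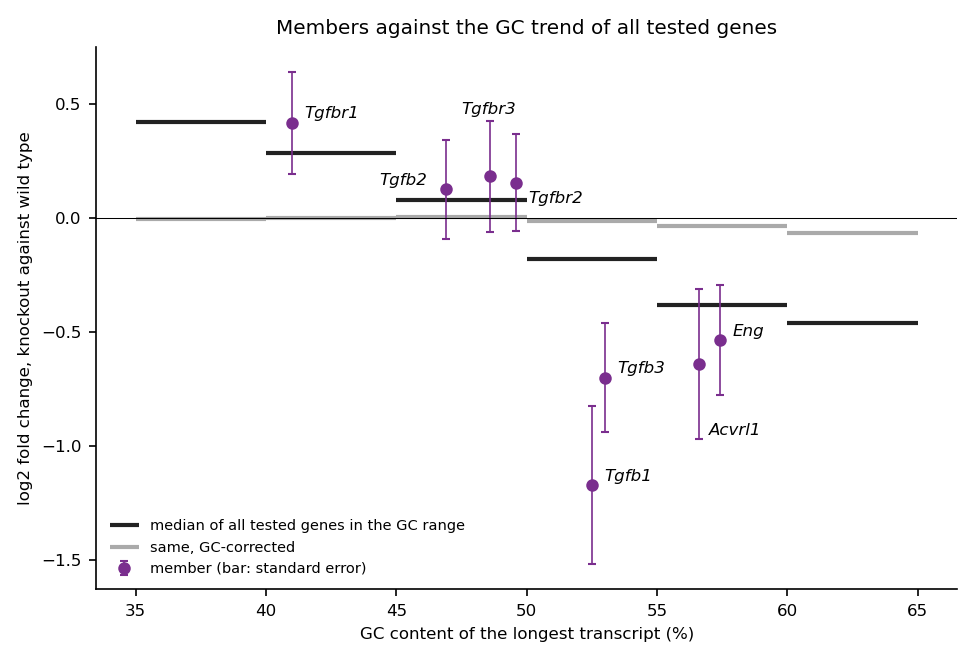
Log2 fold change of the 8 genes (points, with standard errors) against the GC content of the longest transcript, with the median of all tested genes in 6 ranges of GC as dark lines and the same after correction as grey lines; the outermost ranges are open-ended. Tgfb1 at -1.17 sits well under the -0.18 of its range, and Tgfbr1, Eng and Acvrl1 lie within 1 standard error of theirs.

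Compared per kilobase of exon, Tgfb2 was the highest of the 8 genes in both groups, and Acvrl1 the lowest. In wild type the levels were 18.1 ± 3.49 CPM per kb for Tgfb2, 10.4 ± 2.27 for Tgfbr1, 10.4 ± 2.66 for Tgfb3 and 10.3 ± 1.06 for Tgfbr2 (SD, n = 3). Next came 4.75 ± 0.970 for Eng, 4.01 ± 1.88 for Tgfb1, 2.23 ± 0.148 for Tgfbr3 and 1.80 ± 0.680 CPM per kb for Acvrl1 (SD, n = 3). Within wild type, the ranges of neighbours in this order overlapped except from Tgfb2 to Tgfbr1 and from Tgfbr2 to Eng. In knockout the order of the middle genes differed: Tgfbr1 and Tgfbr2 stood at 13.9 ± 0.778 and 11.5 ± 1.55 CPM per kb, and Tgfb3 followed at 6.40 ± 0.477, with its whole range below that of Tgfbr2. Tgfb1, at 1.80 ± 0.429 CPM per kb in knockout, lay behind Tgfbr3 at 2.52 ± 0.582, and their ranges overlapped.

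The make-up of the ligand pool does not depend on how libraries are scaled, and the mean share of Tgfb2 was higher in knockout. Per kilobase, Tgfb2 made up 72.3%, 70.5% and 69.1% of ligand transcripts in the knockout libraries. In the wild-type libraries it made up 44.7%, 53.9% and 69.4%. WT-795 again lay within the knockout range. The means were 70.6% ± 1.62 and 56.0% ± 12.5 (SD, n = 3), and an exact permutation test gave p = 0.2 (adjusted p = 0.356 over 16 shares and ratios). Tgfb1 made up 6.41% ± 1.30 of ligand transcripts in knockout and 12.2% ± 5.43 in wild type, and Tgfb3 22.95% ± 2.01 and 31.8% ± 7.09 (SD, n = 3). With the GC correction the Tgfb2 share was 10.1 percentage points higher in knockout, where it had been 14.6 points higher. The log2 ratio of Tgfb1 to Tgfb3 was -1.86 ± 0.367 in knockout and -1.48 ± 0.443 in wild type (SD, n = 3), with overlapping groups (exact permutation p = 0.3, adjusted p = 0.436).

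Among the 5 receptor genes, Tgfbr1 made up 40.4%, 46.2% and 42.5% of transcripts per kilobase in the knockout libraries, against 37.1%, 28.3% and 39.9% in the wild-type ones. These groups did not overlap. Eng made up 10.9%, 11.0% and 8.74% in the knockout libraries and 18.2%, 18.2% and 12.05% in the wild-type libraries, again without overlap. For both shares the exact permutation test gave p = 0.1, the smallest possible, and an adjusted p of 0.356. The Tgfbr2 share was 35.3% ± 2.61 in knockout and 35.01% ± 4.36 in wild type (SD, n = 3). After the GC correction the Tgfbr1 share differed by 0.26 percentage points, where the uncorrected difference was 7.97 points, and the Eng share was 2.02 points lower where it had been 5.95 points lower. The log2 ratio of Acvrl1 to Eng was -1.495 ± 0.102 in knockout and -1.456 ± 0.314 in wild type (SD, n = 3), and these groups overlapped (exact permutation p = 1.0). Summed over all 8 genes, levels were 355 to 377 CPM in knockout and 344 to 360.2 CPM in wild type.

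**Figure D4:**
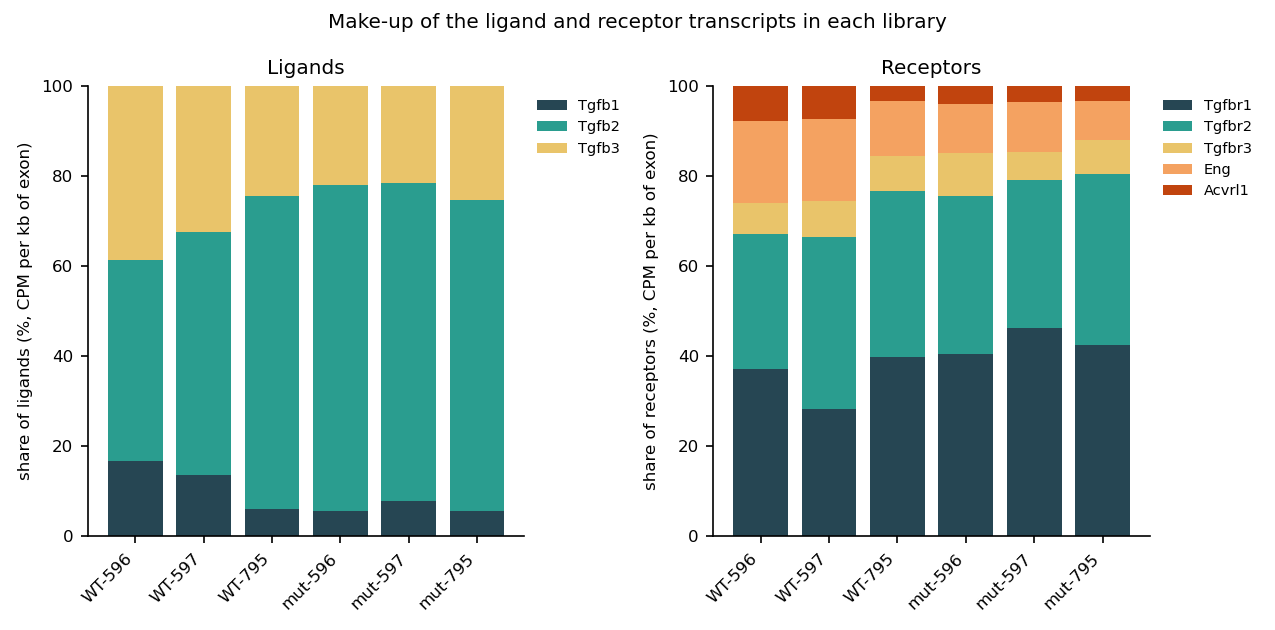
Share of each ligand (left) and each receptor gene (right) in its family in each library, in percent of CPM per kilobase of exon, stacked to the full height. Tgfb2 takes 69.1% to 72.3% of the ligand bar in the knockout libraries and 69.4% in WT-795, against 44.7% in WT-596 and 53.9% in WT-597.

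Markers of the cells in which some of these genes are most active were measured beside them. In bulk tissue, fewer cells of a type and less RNA per cell cannot be told apart. The 25 endothelial markers, none of them at 0 in all libraries, summed to between 444 and 512 CPM in knockout and between 466 and 540.5 CPM in wild type, and 17 of 25 lay below 0 with a median log2 fold change of -0.26. None passed by edgeR. At an unadjusted p under 0.05 were 3, named after their values were seen: Plvap, a protein of endothelial fenestrae, at -1.16, Esam, an endothelial adhesion molecule, at -0.66, and Egfl7, a secreted endothelial factor, at -0.54. Of all tested genes 7.12% were lower by that rule. The 4 endothelial markers with the highest means were Cd34 at -0.14 (SE 0.23), Pecam1 at -0.07 (SE 0.22), Cdh5 at 0.20 (SE 0.21) and Kdr at 0.27 (SE 0.24). Relative to the endothelial sum, Eng came to 2.79%, 2.75% and 2.73% in the knockout libraries and 4.15%, 3.94% and 3.19% in the wild-type ones, without overlap. These ratios are not corrected for GC content. With the GC correction Eng itself was at a log2 fold change of -0.16 (SE 0.20), and its groups overlapped. Acvrl1 was at 0.948% to 1.08% of that sum in knockout and 0.952% to 1.84% in wild type, with overlap.

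Tgfb1 is also made by leukocytes and platelets. The 22 leukocyte markers, none at 0 in all libraries, summed to between 349 and 406 CPM in knockout and between 313 and 507 CPM in wild type. Of these 22 genes, 12 lay below 0 and 10 above, at a median of -0.19, and none passed by edgeR. At an unadjusted edgeR p under 0.05, 4 were lower and 2 higher, where 7.12% of tested genes were lower and 3.37% higher. WT-596 and WT-597 had the highest leukocyte sums, at 507 and 406.2 CPM, and also the highest Tgfb1 levels, while WT-795 had the lowest leukocyte sum. The sum in mut-795 was 405.5 CPM, almost that of WT-597, but its Tgfb1 level was 7.82 CPM against 24.7 CPM in WT-597. Tgfb1 amounted to 1.93% to 3.31% of the leukocyte sum in knockout and to 2.97%, 5.25% and 6.09% in WT-795, WT-596 and WT-597. The 11 platelet and megakaryocyte markers summed to between 38.7 and 61.8 CPM in knockout and between 42.0 and 112 CPM in wild type. Only 2 of the 11 passed the filter on low counts. Pf4 made up most of the sum, at 34.5, 43.9 and 57.9 CPM in the knockout libraries and 60.6, 108.0 and 38.25 CPM in the wild-type ones. A ratio to this sum is therefore nearly a ratio to Pf4. Relative to that platelet sum, Tgfb1 came to 20.1%, 24.9% and 12.65% in the knockout libraries. It came to 40.9%, 22.0% and 22.1% in the wild-type ones, and the groups overlapped. Skeletal muscle markers, from tissue next to the perichondrium, summed to between 3538 and 6928 CPM in knockout. Their sums in wild type were 5906, 14490 and 4528 CPM, so only WT-597 lay above the knockout range. Of these genes 23 of 25 lay below 0, where 7715 of all 15712 tested genes did. At an unadjusted edgeR p under 0.05, 5 were lower, where 7.12% of tested genes were lower. The part of these cell types in the differences of the ligand and receptor genes was not tested beyond these ratios.

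The next genes store and release the ligands. Of 28 tested genes of latency and activation, 16 lay below 0 and 12 above, at a median log2 fold change of -0.41. Of all 15712 tested genes 7715 lay below 0, and their median was 0.01. Fbn1, deleted by design, was the 1 that passed by edgeR. At an unadjusted edgeR p under 0.05, 10 were lower, Fbn1 among them, and 1 was higher. Of all tested genes 7.12% were lower and 3.37% higher by that rule. With the GC correction the list median was -0.23. Mmp2, a gelatinase that can release latent ligand, averaged 65.5 ± 7.99 CPM in the knockout libraries and 153 ± 70.05 CPM in the wild-type ones (SD, n = 3), and its log2 fold change was -1.23. Ltbp4, a latent TGF-beta binding protein with a preference for TGF-beta 1, was at -1.21, Bgn, a small proteoglycan that binds TGF-beta, at -0.82, and Bmp1, a protease that cleaves latent TGF-beta binding protein, at -0.70. Itgb8, the integrin subunit that frees latent TGF-beta 1 and 3, went the other way, with 9.24 ± 1.42 CPM in the knockout libraries and 5.45 ± 1.45 CPM in the wild-type ones (SD, n = 3) and a log2 fold change of 0.77. Each of these 5 had an edgeR adjusted p of 0.459. The groups overlapped for Mmp2, Ltbp4 and Bmp1, with WT-795 at 73.6, 17.6 and 43.2 CPM, inside the knockout range of each. Those of Bgn and Itgb8 did not overlap, where 6.22% of tested genes were lower and 5.66% higher without overlap. After the GC correction Mmp2, Ltbp4, Bgn, Bmp1 and Itgb8 were at -0.90, -0.78, -0.71, -0.34 and 0.40. Without WT-795, 9 of the list passed by edgeR, all lower, where 5.73% of tested genes were called lower, and 3 of the list passed with the GC correction as well (0.796% of tested genes). The 9 include the deleted gene Fbn1, whose fall was fixed by the design. Also among the 9 were Mmp2 (adjusted p = 0.00242), Ltbp4 (adjusted p = 0.00859), Bgn (adjusted p = 0.0115) and Bmp1 (adjusted p = 0.0148).

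Genes that carry the signal inside the cell lay on both sides of 0. Of 28 signal transducers and inhibitors, 16 lay above 0 and 12 below, with a median of 0.01, and none passed by edgeR. At an unadjusted edgeR p under 0.05, 1 was higher and 2 were lower, where 3.37% of tested genes were higher and 7.12% lower. Trim33, a ubiquitin ligase that binds SMAD proteins, was at 0.68 (SE 0.23), Tab1, a partner of the kinase TAK1, at -0.78 (SE 0.31), and Fkbp1a, which binds and holds the type I receptor inactive, at -0.59 (SE 0.24). Skil, a repressor of SMAD targets that is itself induced by TGF-beta, was at 0.47 (SE 0.24). After the GC correction Trim33, Tab1, Fkbp1a and Skil were at 0.44, -0.38, -0.30 and 0.15. The groups of Fkbp1a and Skil overlapped, with WT-795 inside the knockout range of each.

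Of 11 tested genes of other receptors of the superfamily, 8 lay above 0 and 3 below, at a median of 0.10; none passed by edgeR, and 0 had an unadjusted p under 0.05. The BMP receptor genes Bmpr1a and Bmpr2 were at 0.47 (SE 0.23) and 0.55 (SE 0.31), and the activin receptor gene Acvr2a at 0.49 (SE 0.26). After the GC correction Bmpr1a, Bmpr2 and Acvr2a were at 0.15, 0.28 and 0.13. Without WT-795 these 3 passed by edgeR, all higher, with adjusted p between 0.0158 for Bmpr2 and 0.0474 for Bmpr1a, where 3.35% of tested genes were called higher. With the GC correction as well, 0 of the list passed. Bmpr1a, Bmpr2 and Acvr2a had means in knockout of 149, 185 and 32.7 CPM, against 108, 126 and 23.3 CPM in wild type. The groups overlapped for Bmpr2 and Acvr2a. For Bmpr2, WT-795 was at 203.7 CPM, above every knockout library. For Acvr2a it was at 33.4 CPM, inside the knockout range of 29.2 to 37.9 CPM. For Bmpr1a it was at 141.5 CPM, just below the lowest knockout library at 142.5 CPM.

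Of 32 genes that respond to TGF-beta, 19 lay below 0 and 13 above, at a median of -0.14, and none passed by edgeR. At an unadjusted edgeR p under 0.05, 6 were lower and 0 higher, where 7.12% of tested genes were lower and 3.37% higher. Those 6 were Tgfb1i1, a focal adhesion protein gene named for its induction, at -1.01 (SE 0.31), Tgfbi, a matrix protein gene, at -0.63 (SE 0.21), the smooth muscle actin gene Acta2 at -0.84 (SE 0.33), the latent TGF-beta binding protein gene Ltbp2 at -0.70 (SE 0.29), the integrin subunit gene Itgb5 at -0.64 (SE 0.27) and Scx at -0.66 (SE 0.29). With the GC correction Tgfbi, Ltbp2, Itgb5 and Scx were at -0.42, -0.32, -0.28 and -0.25, and Tgfb1i1 and Acta2 at -0.93 and -0.82. Ltbp2 and Itgb5 also belong to the list of latency and activation and are counted as lower in both lists. The groups of Tgfb1i1, Acta2, Itgb5 and Scx overlapped, with WT-795 inside the knockout range of each. Acta2 is also a marker of smooth muscle, and the part of muscle tissue in its value was not tested.

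**Figure D5:**
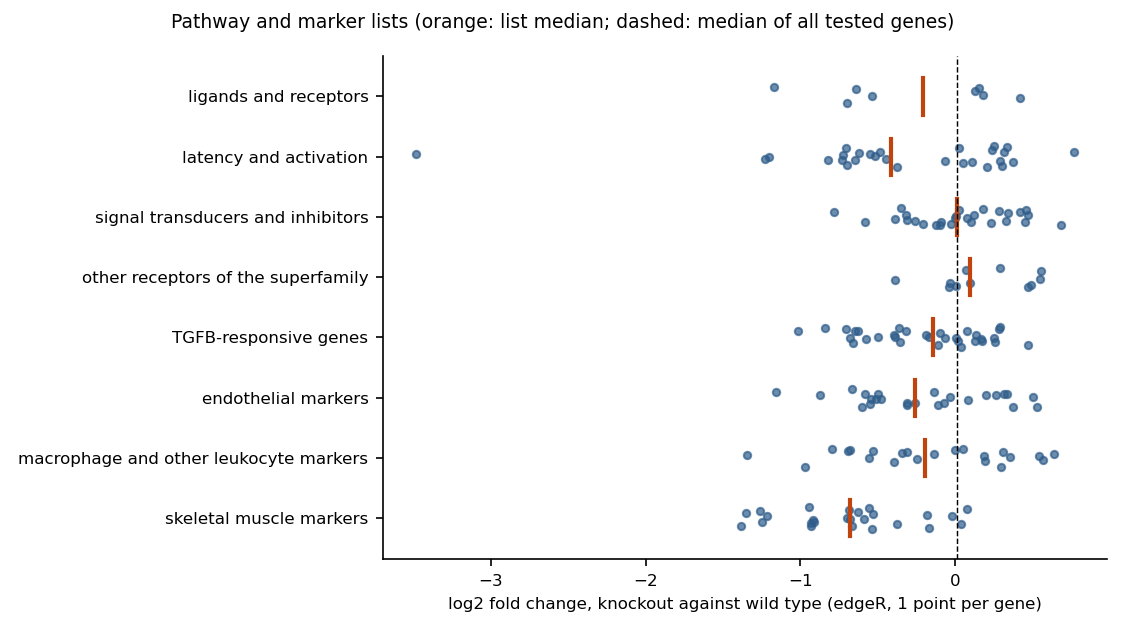
Log2 fold change of every tested gene in the pathway and marker lists (1 point per gene, spread vertically at random), with the list median in orange and the median of all tested genes as a dashed line at 0.01. The ligands and receptors fall into a group of 4 below -0.5 and a group of 4 above 0, and the far left point of the latency list is Fbn1.

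The genes whose profile over the 6 libraries lay nearest to each ligand or receptor were found among 7821 genes whose mean log2 CPM reached 3, by the root mean square difference in log2 CPM after centring. For Tgfb1 they were Igfbp6, an IGF-binding protein gene (difference 0.107), and Nupr1, a stress-induced nuclear protein gene (0.116), where Tgfb1 itself varied by 0.726 about its mean. For Tgfb3 they were Ppp2r1a, a phosphatase scaffold gene (0.0423), and Trim47 (0.0523). Nearest to Eng were Mrps18a, of the mitochondrial ribosome (0.0628), and the tyrosine phosphatase gene Ptpn1 (0.0691), and nearest to Acvrl1 were the complement gene C1qc (0.0676) and the prostacyclin synthase gene Ptgis (0.0808). Btf3l4 (0.0424) was among the nearest to Tgfbr1, and Phykpl (0.0294) and Map3k20 (0.0439) were nearest to Tgfb2. Tgfbr2 was nearest to Pdp1 (0.0340) and Tgfbr3 to Htatsf1 (0.0415). Some of these are close to their partner in GC content, such as Phykpl at 47.0% beside Tgfb2 at 46.9%, and others are not, such as Igfbp6 at 60.7% beside Tgfb1 at 52.5%, Trim47 at 64.1% beside Tgfb3 at 53.0% and Pdp1 at 39.2% beside Tgfbr2 at 49.6%. Profiles over 6 libraries share library depth and the GC trend. Within the family the closest profiles were those of Tgfb3 and Eng (0.161), and the furthest apart those of Tgfb1 and Tgfbr1 (0.973).

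The 8 genes lie on 8 different chromosomes of GRCm38. Tgfb1 (ENSMUSG00000002603) spans 25687002 to 25705077 on the plus strand of chromosome 7 and overlaps no annotated gene, and the same is true of Tgfbr1 (ENSMUSG00000007613) at 47353222 to 47414931 on the plus strand of chromosome 4 and of Tgfbr2 (ENSMUSG00000032440) at 116084293 to 116175360 on the minus strand of chromosome 9. Exons of Tgfb3 (ENSMUSG00000021253; chromosome 12, minus strand, 86056745 to 86079041) share 257 bases with Gm48008 and 163 with Gm37804 on the opposite strand. Exons of Eng (ENSMUSG00000026814; chromosome 2, plus strand, 32646595 to 32682669) share 61 bases with Fpgs, and those of Acvrl1 (ENSMUSG00000000530; chromosome 15, plus strand, 101128522 to 101145336) share 127 bases with the antisense Gm16031. Tgfb2 (ENSMUSG00000039239; chromosome 1, minus strand, 186622792 to 186705989) shares 124 exon bases with the antisense Gm29491, and Tgfbr3 (ENSMUSG00000029287; chromosome 5, minus strand, 107106570 to 107289629) shares 297 with Gm43422 on its own strand. The counting is not stated to use strand, so reads of these stretches, a small part of each gene, cannot be assigned to either partner.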

How the data were processed

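The authors deposited whole-number counts per gene for 6 libraries, not normalized, made from amplified cDNA (Smart-seq with a Nextera XT library, per the labels' protocols). GRCm38.p6 and DESeq2 are named in the submitters' processing notes, and no source used here gives the counting tool, its strand setting or its handling of multiple matches. The authors also deposited log2 fold changes for 1643 genes. Their base and direction were judged from the values, since 1609 lay within 1e-04 of a DESeq2 estimate made from the counts. Symbols, positions, exon lengths and the GC content of the longest transcript came from GENCODE M21, with a symbol for all 55536 genes.

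The test was edgeR 4.0.16 in R 4.3.3 (glmQLFit and glmQLFTest, TMM, filterByExpr, no covariate), two-sided, with Benjamini-Hochberg adjustment over 15712 genes at 0.05. Standard errors are the fold change over the square root of F. Log2 CPM used a prior count of 2. Alternatives used limma 3.58.1 and DESeq2 1.42.0. The GC correction subtracted a spline (6 degrees of freedom) of each library's centred log2 CPM on GC content. The procedure was tested on simulated data, where it recovered 30% of 2-fold and 94% of 4-fold changes, with 3 false calls. The lack of a call therefore does not show that a gene is unchanged. Same-numbered libraries were compared by the correlation of their deviations from the group means. Reads carry no molecular identifiers, so counting error is a lower limit. Shares and ratios were compared by exact permutation (scipy 1.17.1).

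The genes and lists were chosen with earlier results of these data known. Named genes were the 8 members and Fbn1, the 6 smallest unadjusted p of each pathway list, the 4 highest means of each marker list, and the 2 nearest profiles of each member. Not every gene this rule picks is reported here. Further lists, of erythroid, pericyte, tendon, chondrocyte, osteoblast, Schwann and stress genes, had median log2 fold changes of -0.51, -0.09, -0.00281, -0.02, -0.16, 0.21 and -0.32, and the perichondrium list was at 0.09.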

Additional observations from a re-analysis of the deposited data

How the results depend on the processing

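Tgfb1, Tgfb3, Eng and Acvrl1 lay below 0 and Tgfbr2 above 0 under all 24 alternatives, of which the 6 that combine the GC correction with leaving out a library were chosen after seeing the data. The count of the 8 genes past the threshold was 0, and 1 (Tgfb1, edgeR adjusted p = 0.00646) with no filter on low counts; it ranged from 0 to 2 with single libraries left out, and from 0 to 1 with the GC correction as well. The count over all genes was 1; it was 270 with no filter, 20 by DESeq2, 4 with the replicate block and GC correction together and 0 with the Xist covariate (490 genes at an unadjusted p under 0.05), and it ranged from 1 to 1517 with single libraries left out and from 1 to 159 with the GC correction as well, both highest without WT-795 and next without mut-795 (12 and, with the correction, 13). The cause was not tested. Same-numbered libraries did not all deviate together (r = -0.177 for mut-596 and WT-596, 0.244 for mut-597 and WT-597, -0.201 for mut-795 and WT-795), and mut-597 alone correlated best with its own number. The labels do not say what the number marks, and so few libraries cannot settle whether same-numbered ones share more than a number. The replicate block left the count over all genes at 1 and that of the 8 at 0, with Tgfb1 at -1.05 and Tgfb3 at -0.67.

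Signs changed for genes near 0. With single libraries left out, Tgfb2 ranged from -0.0299 to 0.22, Tgfbr3 from -0.00192 to 0.33 and Tgfbr1 from 0.23 to 0.52; with the GC correction as well, values below 0 were -0.113 and -0.0298 for Tgfb2, -0.00397, -0.0115 and -0.0199 for Tgfbr1 and -0.0250 for Tgfbr3. Without division by exon length the knockout difference in the Tgfbr2 share was -0.949 and in the Tgfbr3 share -0.0232 percentage points. With the GC correction the difference in the log2 ratio of Tgfbr1 to Tgfbr2 was -0.0972 and in that of Tgfbr3 to Tgfbr2 -0.0469. With single libraries left out, the difference ranged from -2.17 to 1.91 points for the Tgfbr2 share, from -0.669 to 0.936 points for the Tgfbr3 share, from -0.157 to 0.0904 for the log2 ratio of Tgfbr3 to Tgfbr2 and from -0.220 to 0.0666 for that of Acvrl1 to Eng. Acvrl1 had the fewest counts of the 8, at 31 to 105 per library.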
